A study of Mus musculus with 6 samples.

Results

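Chromatin accessibility was described at 8 genes for proteins that destroy mRNA, namely the ZFP36 family (Zfp36, Zfp36l1, Zfp36l2), the Regnase family (Zc3h12a, Zc3h12c, Zc3h12d) and the roquin family (Rc3h1, Rc3h2). The measurements came from ATAC-seq of MLL-ENL transformed mouse fetal liver cells, which grow in IL-3 under the drive of that fusion oncogene. In this assay reads pile up where the Tn5 transposase reaches open DNA. Cells with intact Cebpa and Cebpb (WT; the labels name no vector) were compared with cells whose genotype was Cebpa KO, Cebpb KO and which carried exogenous GFP (dKO), with 2 libraries each. Another group of 2 libraries, dKO cells expressing rat C/EBPβ LAP*, had no column in the table and was not analysed here. Per the study's methods, dKO lines were clones regrown from rare survivors of TAT-Cre treatment of floxed cells. The labels do not say which clone was used, so that genotype, clone and vector cannot be told apart in these values.

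The regions were those of the authors' table of accessibility differences between WT and dKO that lay within 100 kb of a member gene, on either side or in the gene body. This gave 24 of 10016 listed regions. The table held only regions past the authors' threshold for this same contrast, so the members' regions were selected on the measured difference and their changes are given as a description, without a test. Each level is the authors' log2 mean of normalised reads over the 2 libraries of a group, and each change is dKO minus WT on that log2 scale. No value per library was listed, so no replicate error can be attached to any level or change. Per the labels, sequencing depth averaged 25000000 reads over the samples, and the depth of each single library is unknown. Taking 3 reads in each library as the floor gave a log2 level of 1.43, and the members' levels lay above it, from 2.41 to 8.63.

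As background, the 3 protein families act on the untranslated ends of mRNAs for cytokines, transcription factors and other short-lived messages. ZFP36 proteins bind AU-rich elements through paired zinc fingers and bring in the CCR4-NOT deadenylase, which trims the poly(A) tail. Regnases are endonucleases that cut at stem-loops, and roquins bind stem-loops and also recruit deadenylation. In myeloid cells these proteins are known for limiting the output of inflammatory messages such as Tnf and Il6.

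The DNA of the regions that carry the description is printed here on mm10, read from the GRCm38.p6 assembly. The pair of regions at Zfp36 is shown because they moved in opposite directions. The first was higher in dKO and the second lower, and capitals mark motif matches: an AP-1 match (TGAGTCA) in the first, then a C/EBP match (TTACNNAA, here on the reverse strand) and a PU.1 match (GAGGAAGT) in the second.
Zfp36 upstream region, chr7:28383113-28383312, plus strand: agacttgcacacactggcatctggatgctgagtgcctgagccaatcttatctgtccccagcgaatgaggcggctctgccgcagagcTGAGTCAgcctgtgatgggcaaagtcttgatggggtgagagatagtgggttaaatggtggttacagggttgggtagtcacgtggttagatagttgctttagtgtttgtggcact
Zfp36 distal region, chr7:28402021-28402220, plus strand: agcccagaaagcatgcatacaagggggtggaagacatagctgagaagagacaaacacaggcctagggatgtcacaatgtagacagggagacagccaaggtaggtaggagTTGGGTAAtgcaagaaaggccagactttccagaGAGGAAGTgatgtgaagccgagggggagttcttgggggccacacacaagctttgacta

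The 2 members with a listed region over their own transcription start site (TSS) were Zfp36l1 and Zc3h12c, and the DNA directly before each start is shown because these starts moved in opposite directions. The first sequence is the RefSeq promoter of Zfp36l1. For Zc3h12c the 250 bases end at the GENCODE start. Neither held a match to a motif searched, so neither has capitals. The GC content was 48.4% before Zfp36l1 and 81.2% before Zc3h12c, and the ratio of observed to expected CpG was 1.01 and 1.11.
Zfp36l1 start, chr12:80113014-80113263, minus strand: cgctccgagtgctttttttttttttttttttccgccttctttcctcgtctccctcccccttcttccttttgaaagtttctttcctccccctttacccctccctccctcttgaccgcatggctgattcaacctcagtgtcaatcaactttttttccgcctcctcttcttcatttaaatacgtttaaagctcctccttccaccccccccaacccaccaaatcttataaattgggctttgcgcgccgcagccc
Zc3h12c start, chr9:52168573-52168822, minus strand: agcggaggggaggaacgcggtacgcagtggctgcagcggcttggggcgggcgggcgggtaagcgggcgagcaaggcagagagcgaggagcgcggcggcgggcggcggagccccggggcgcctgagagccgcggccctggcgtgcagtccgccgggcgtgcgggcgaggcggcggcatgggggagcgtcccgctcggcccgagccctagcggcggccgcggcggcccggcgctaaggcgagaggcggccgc

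Distal regions with large changes are shown for Zfp36l2, Zc3h12a and Zc3h12c. Capitals mark a RUNX match (AACCACA, on the reverse strand) at Zfp36l2 and an AP-1 match (reverse strand) at Zc3h12a, and the Zc3h12c sequence had no match.
Zfp36l2 far upstream region, chr17:84275106-84275305, plus strand: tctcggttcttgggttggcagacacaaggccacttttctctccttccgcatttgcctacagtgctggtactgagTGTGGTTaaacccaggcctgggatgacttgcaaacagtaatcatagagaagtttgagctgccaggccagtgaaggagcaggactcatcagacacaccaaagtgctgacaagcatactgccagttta
Zc3h12a upstream region, chr4:125158107-125158306, plus strand: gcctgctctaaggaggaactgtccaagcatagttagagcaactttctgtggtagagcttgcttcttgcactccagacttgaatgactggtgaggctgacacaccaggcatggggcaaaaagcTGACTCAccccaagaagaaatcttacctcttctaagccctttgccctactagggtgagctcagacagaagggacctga
Zc3h12c upstream region, chr9:52196014-52196213, plus strand: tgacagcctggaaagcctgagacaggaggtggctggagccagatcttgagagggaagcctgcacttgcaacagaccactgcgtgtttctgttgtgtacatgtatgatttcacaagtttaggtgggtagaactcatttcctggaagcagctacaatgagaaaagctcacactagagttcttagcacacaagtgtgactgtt

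AP-1 strings were present in 7 of 24 member regions, near the share of 25.3% of all listed regions. They occurred 9 times, and 6 of these matches lay in 4 regions downstream of Zfp36l2. Those 6 are printed with 12 bases on each side, in the direction in which the match reads TGAGTCA, because they lie in the downstream run. Matches a and b lie next to each other in 1 region and have similar flanks, and e and f also share a region.
Zfp36l2 AP-1 a, chr17:84107661-84107691, minus strand: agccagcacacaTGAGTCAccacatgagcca
Zfp36l2 AP-1 b, chr17:84107689-84107719, minus strand: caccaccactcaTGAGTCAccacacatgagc
Zfp36l2 AP-1 c, chr17:84116422-84116452, minus strand: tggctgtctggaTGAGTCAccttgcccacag
Zfp36l2 AP-1 d, chr17:84141365-84141395, plus strand: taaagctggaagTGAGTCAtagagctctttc
Zfp36l2 AP-1 e, chr17:84148977-84149007, minus strand: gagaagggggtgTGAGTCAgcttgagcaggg
Zfp36l2 AP-1 f, chr17:84149006-84149036, minus strand: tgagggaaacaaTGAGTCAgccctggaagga

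At least 1 listed region lay near 7 of the 8 members, and Rc3h2 had none. Among all 21911 protein-coding genes the same window held a listed region for 63.0%, so that having one is common. Of the 24 regions, 18 were higher and 6 lower in dKO, which is 75% higher against 60.3% of all listed regions. Without the 9 regions downstream of Zfp36l2, 9 of 15 (60%) were higher, close to that background. By family, 16 of 18 regions were higher at the ZFP36 genes of the 8, and 10 of these were at Zfp36l2. At the Regnase genes of the 8, 1 of 5 was higher, and 3 of the 4 lower ones were at Zc3h12c. Family members outside the 8, Zfp36l3 with 1 lower region (-2.84) and Zc3h12b with none, were counted with the partner factors below. The only region at a roquin gene was higher. The families were not compared by a test, and regions of 1 locus are not independent. A change of at least 2-fold was seen in 23 of 24 regions, against 85.5% of all listed regions, a share that the table's own selection sets. The median change was 1.64 over the 18 higher and -1.52 over the 6 lower regions, against 1.58 and -1.85 over all listed regions of each direction.

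**Figure D1:**
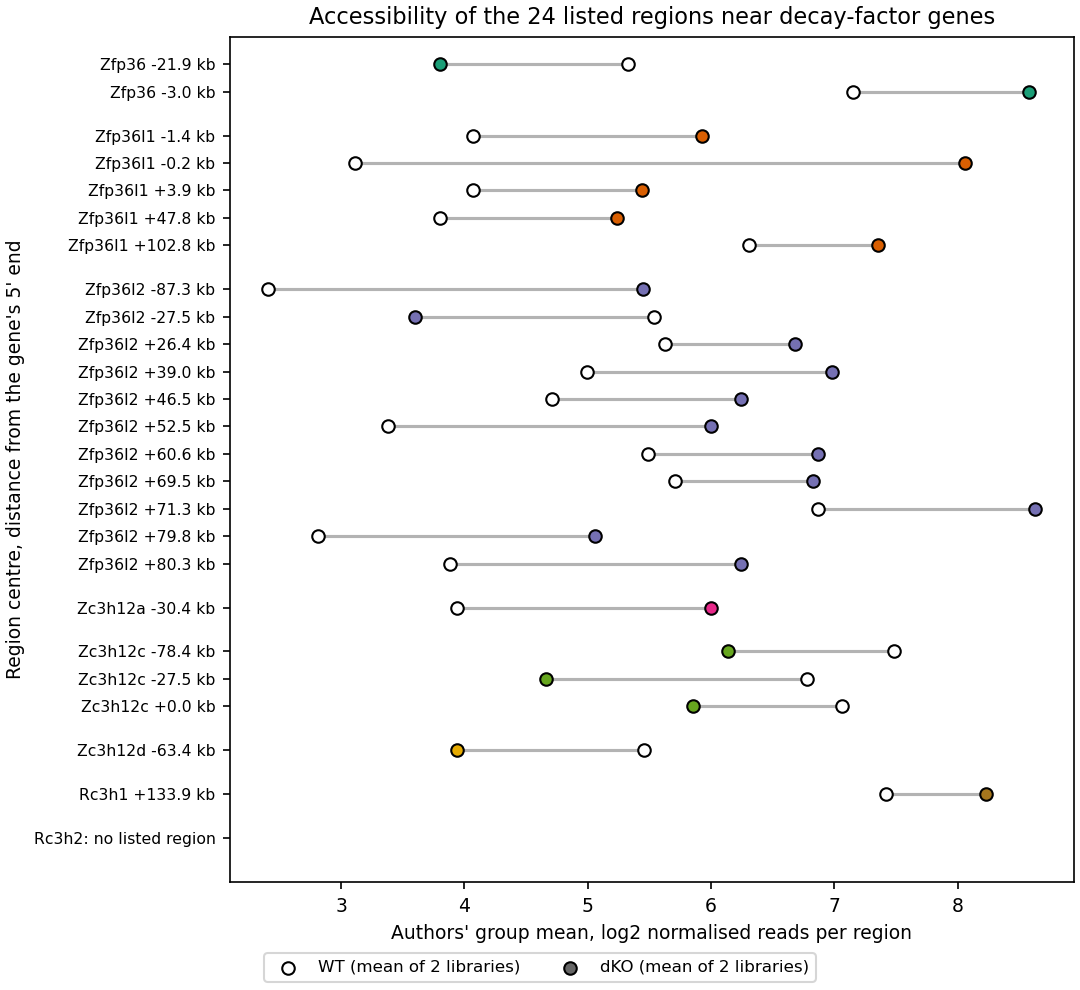
Level of each of the 24 listed regions in WT (open) and dKO (filled), as the authors' mean log2 normalised reads over 2 libraries; rows are regions, labelled by gene and by distance from the gene's 5′ end (minus is upstream). All 5 Zfp36l1 regions and 10 of 11 Zfp36l2 regions moved to the right in dKO, all 3 Zc3h12c regions moved to the left, and no error bars are drawn because no library values were listed.

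Zfp36 encodes tristetraprolin, the AU-rich element binding protein that destabilises Tnf mRNA. The gene (ENSMUSG00000044786.6, chr7:28376784-28380253, minus strand) had no listed region over its start or body. The nearer region, chr7:28382964-28383461, lay 2.71 kb upstream in an intron of the antisense gene Gm44710. It had 142 normalised reads in WT and 383 in dKO, a change of 1.43 (2.69-fold higher). This was among the most accessible member regions in both groups. The second region, chr7:28401978-28402263, lay 21.7 kb upstream in an intron of Samd4b. Its levels were 40.2 reads in WT and 13.9 in dKO, a change of -1.53 (2.89-fold lower). It lay only 1.77 kb from the Samd4b start, so its assignment to Zfp36 rests on the window alone.

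Zfp36l1 encodes a paralogue of tristetraprolin that shares its RNA-binding domain. All 5 listed regions near the gene (ENSMUSG00000021127.7, chr12:80107754-80113013, minus strand) were higher in dKO, and for all 5 the nearest protein-coding start was that of Zfp36l1. Among protein-coding genes, 6.38% had 5 or more listed regions and 2.05% had 5 or more that were all higher.

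The region over the Zfp36l1 start, chr12:80112813-80113560, went from 8.63 normalised reads in WT to 267 in dKO. This change of 4.95 (30.9-fold) was the largest among the 24 member regions. Of the 976 listed regions that covered the start of a protein-coding gene it had the second largest rise, and 54.3% of those regions were higher in dKO. Its WT level stood low among them, with 4.41% at or below it, whereas 18.5% were at or above its dKO level. A rise from a few reads has a wide counting error, and the WT value here is a mean of 2 libraries whose separate values were not listed.

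The other 4 Zfp36l1 regions rose less. The region 1.28 kb upstream, chr12:80114291-80114605, had 16.8 reads in WT and 61 in dKO, a change of 1.86. The region in the gene body, chr12:80108993-80109253, had 16.8 and 43.4 reads, a change of 1.37. This last region, like the region over the start, overlapped coding and untranslated exon sequence of Zfp36l1 and an exon of the lincRNA Gm26669. Downstream, chr12:80065095-80065402, 42.4 kb past the body in an intron of the lincRNA Gm36660, had 13.9 and 37.8 reads, a change of 1.44. The farthest region, chr12:80009860-80010562, was intergenic at 97.2 kb past the body and had 79.3 and 163 reads, a change of 1.04. The distal region was thus the most accessible of the 5 in WT, and the region over the start the most accessible in dKO.

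Zfp36l2 encodes the remaining ZFP36 family member among the 8, which is known for roles in blood stem and progenitor cells. The gene (ENSMUSG00000045817.8, chr17:84183931-84187947, minus strand) had 11 listed regions, the most of the 8 members, and 10 of them were higher. A typical protein-coding gene had a median of 1 region, 29 genes (0.132%) had 11 or more, and 38 (0.173%) had 10 or more higher regions. No other protein-coding gene outside its window had exactly 10 higher and 1 lower, though few genes had enough regions for such a match. None of the 11 overlapped the Zfp36l2 start or body.

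Of the 11 regions, 9 formed a run downstream of Zfp36l2, chr17:84107532-84161968, over 54.4 kb. All 9 were higher in dKO, by 1.05 to 2.62 with a median of 1.76, and gaps between neighbours ran from 0.217 to 12 kb. Together they covered 4404 bp. A window of 50 kb in place of 100 kb kept 4 of the 10 higher regions and the lower one, and a window of 10 kb kept none. For each of the 9 the nearest protein-coding start was that of Zfp36l2, and part of the run lay in the lincRNA AC132455.2.

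Within the run, the largest change was at chr17:84135272-84135627, over an exon of AC132455.2, with 10.4 reads in WT and 64.0 in dKO (a change of 2.62, 6.15-fold). The pair at the far end, chr17:84107532-84107840 and chr17:84108057-84108287, changed by 2.36 (log2 level 3.88 to 6.24) and 2.25 (2.81 to 5.06). At chr17:84148621-84149273 the log2 level went from 4.99 to 6.98, a change of 1.99. These members of the run were of low to middle accessibility in WT. The region nearest the gene, chr17:84161226-84161968, at 26.0 kb from the start, had the smallest change of the run at 1.05 (5.63 to 6.68). The region with most reads in the run, chr17:84116241-84117097, was also its widest, at 857 bp. It was picked out after its values were seen, and had 117 reads in WT and 396 in dKO, a change of 1.76. The other 3 had changes of 1.12, 1.38 and 1.53.

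Upstream of Zfp36l2 both listed regions lay in introns of the neighbouring gene Thada, and they moved in opposite directions. The farther one, chr17:84275055-84275356, 87.1 kb from the gene, had 5.31 reads in WT, the lowest member level, and 43.7 in dKO, a change of 3.04 (8.22-fold). The nearer one, chr17:84215244-84215690, at 27.3 kb, had 46.5 reads in WT and 12.1 in dKO, a change of -1.94. It is named as the only lower region near the gene, after its value was seen.

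**Figure D2:**
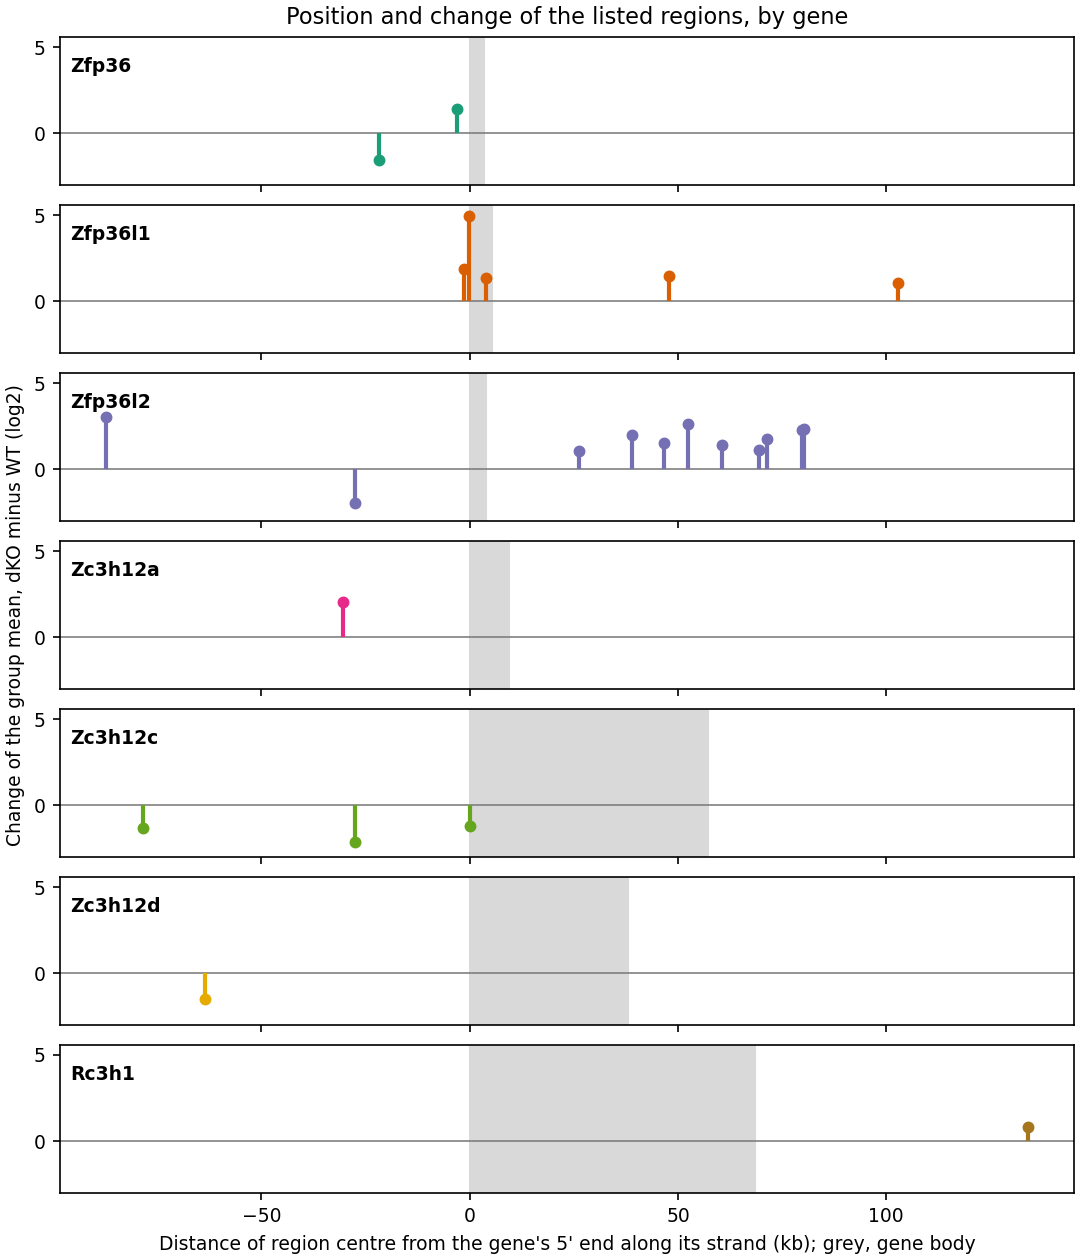
Change of each listed region (log2, dKO minus WT) against the distance of its centre from the gene's 5′ end in kb along the gene's strand, with the gene body in grey and 1 panel for each of the 7 genes with a region. The Zfp36l1 region at the start rose by 4.95, 9 higher regions stand downstream of Zfp36l2, and the 3 Zc3h12c regions point down.

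The Regnase family showed both directions. Zc3h12a encodes Regnase-1, the endonuclease that cleaves Il6 mRNA. Its only listed region (gene ENSMUSG00000042677.7, chr4:125118423-125127840, minus strand) was intergenic, 30.2 kb upstream at chr4:125158005-125158408. It went from 15.3 reads in WT to 64.0 in dKO, a change of 2.06 (4.17-fold).

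Zc3h12c encodes Regnase-3. Its gene (ENSMUSG00000035164.8, chr9:52111344-52168572, minus strand) had 3 listed regions, all lower in dKO and all nearest to its own start. Among protein-coding genes, 21.8% had 3 or more listed regions and 3.15% had 3 or more that were all lower. The region over the start, chr9:52167960-52169099, had 133 reads in WT and 57.7 in dKO, a change of -1.21 (2.31-fold lower). Of the 446 listed start regions that were lower, 68.2% fell by at least as much, so this fall was of modest size among them. The intergenic region 27.3 kb upstream, chr9:52195866-52196361, had 110 and 25.3 reads, a change of -2.12, the largest fall among the members. The intergenic region 78.1 kb upstream, chr9:52246708-52247177, had 179 and 70.5 reads, a change of -1.34. All 3 were well above the floor in both groups, so the Zc3h12c start stayed accessible in dKO at a lower level.

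Zc3h12d encodes Regnase-4. The gene (ENSMUSG00000039981.6, chr10:7832470-7870396, plus strand) had 1 listed region, chr10:7768869-7769201, 63.3 kb upstream in an intron of Ginm1. It had 44.0 reads in WT and 15.3 in dKO, a change of -1.52. This region lay 1.35 kb from the Ginm1 start, much nearer to that gene than to Zc3h12d.

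Of the roquins, which bind stem-loops in mRNAs such as Icos and Tnf, Rc3h1 (ENSMUSG00000040423.10, chr1:160906418-160974978, plus strand) had 1 listed region, chr1:161039814-161040890, 64.8 kb downstream. It had 171 reads in WT and 300 in dKO, a change of 0.81 (1.75-fold), the smallest change of the 24. Centring on the median listed change turned it to a lower region (-0.17). The nearest protein-coding start was that of Zbtb37 at 4.96 kb. Rc3h2 (ENSMUSG00000075376.10, chr2:37370069-37422903, minus strand) had no listed region, and the nearest one lay 293 kb from the gene. A gene without a listed region had no difference past the authors' threshold, which is not a measurement of equal accessibility.

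The window set which regions counted. The farthest region inside it was the one 97.2 kb from Zfp36l1, with a change of 1.04. The nearest outside it was 126 kb from Zfp36l2, chr17:84057102-84057465, with a change of 1.68 (3.44 to 5.12). This outside region had the direction of the downstream run, but the nearest region outside the window did not have the direction of the inside ones at every gene. At Zfp36l1, where all 5 inside were higher, it fell by 3.20 at 209 kb, and at Zc3h12d, where the inside one was lower, it rose by 1.98 at 197 kb.

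Features that the window did not use varied among the member regions. Of the 8 members, 2 had a listed region over their own start, against 4.42% of protein-coding genes. By region, 2 of 24 (8.33%) lay within 1 kb of a protein-coding start, against 14.9% of all listed regions. The median distance to such a start was 34244 bp, against 14732 bp, and it rested on the Zfp36l2 run: without those 9 regions the median over the other 15 was 4965 bp, with 2 of 15 (13.3%) within 1 kb. All 12 regions downstream of a member gene were higher in dKO, whereas 4 of 9 upstream regions and 2 of 3 regions overlapping a gene body were higher. Of those 12, 9 belonged to Zfp36l2, so the count mostly repeats that locus. An observed to expected CpG ratio above 0.6 was found in 3 member regions, the start regions of Zfp36l1 and Zc3h12c and the region 1.28 kb upstream of Zfp36l1, and in 8.11% of all listed regions. The other 21 had ratios from 0.0516 to 0.505.

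**Figure D3:**
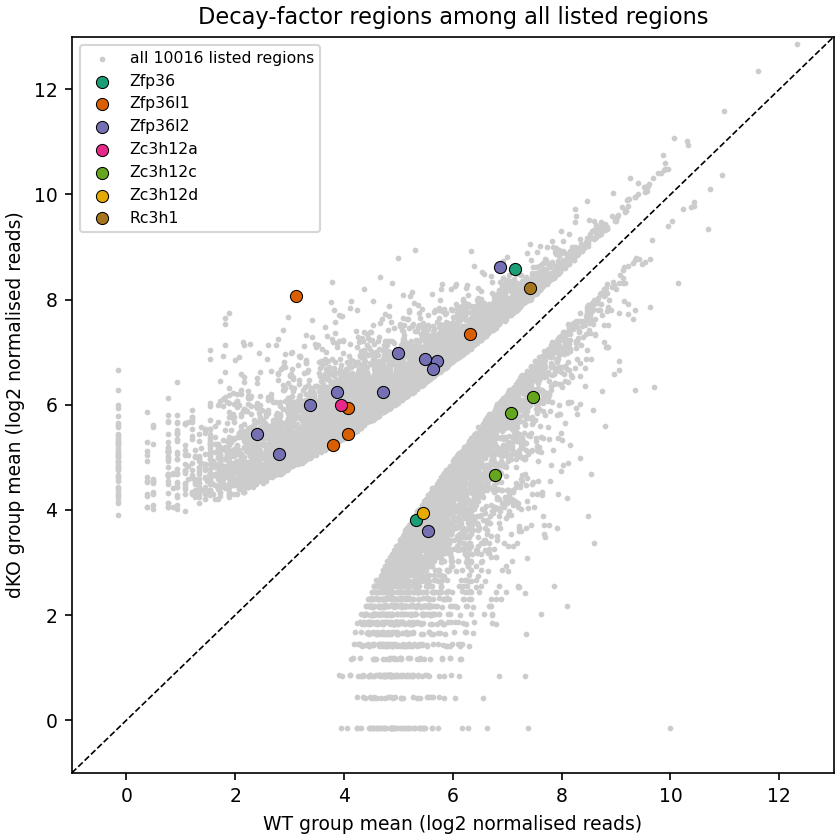
WT level against dKO level (authors' group means, log2 normalised reads) of all 10016 listed regions in grey, with the member regions in colour and a dashed line of equal level; the gap along the line is the authors' threshold. Members lie within the cloud of listed regions on both sides, with the Zfp36l1 start region (3.11 in WT, 8.06 in dKO) near its upper edge.

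Sequence motifs were counted on both strands as exact strings, first over the whole of each region. The AP-1 string (TGAGTCA) was present in 7 of 24 member regions, against 25.3% of all listed regions. The C/EBP string TTACNNAA was present in 8 of 24, against 21%, and TTGCNNAA, which can overlap it, in 3 of 24, against 29.7%. Either C/EBP string was present in 11 of 24, against 42.9%, so that the members together were close to that background. PU.1 (GAGGAAGT) was present in 4 of 24 and RUNX (AACCACA) in 3 of 24, against 13.2% and 19.3%. In the central 200 bases, AP-1 was present in 5 of 18 higher member regions, against 26.7% of all higher listed regions. It was in 1 of 6 lower ones, the region 78.1 kb upstream of Zc3h12c, against 4.67%. A C/EBP string was there in 1 of 18 higher and 3 of 6 lower member regions, against 20.1% and 40.8%. The lower ones were the distal Zfp36 region, the Thada intron region near Zfp36l2 and the same Zc3h12c region. Of all 32851 RefSeq promoters, 4.46% held the AP-1 string, 16.5% a C/EBP string, 2.44% the PU.1 string and 4.40% the RUNX string in 250 bases. Such matches are strings of letters and do not show binding.

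The genes these factors work with or act on were described in the same window, from lists drawn up by function. The lists were chosen with earlier results of these data known. Of 41 genes of deadenylation, decapping, exonucleolytic decay and the UPF1 and SMG1 pathway, 34 (82.9%) had a listed region, against 63.0% of all protein-coding genes. Only higher regions were seen at 15, only lower at 9 and both at 10. Of their 71 regions, 44 (62.0%) were higher, close to the 60.3% of all listed regions. None of the 41 had a listed region over its start, against 4.42% of all protein-coding genes, a share that is also small. Exosc4, a subunit of the RNA exosome, had 6 regions, all higher (largest change 3.50). Pan2, the catalytic subunit of the PAN deadenylase, had 5, all higher (largest 4.84). Tob1, which links mRNAs to CCR4-NOT, had 2 higher and 2 lower (largest 3.07). Pnrc1, a partner of the decapping complex, had 1 higher and 3 lower (largest -2.87), and Ddx6, the helicase of decapping complexes, had 4 higher (largest 1.66). The machinery genes thus showed no common direction.

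Of 18 partner and opposing factors, 13 (72.2%) had a listed region, against 63.0% of all protein-coding genes. Of their 40 regions, 26 (65.0%) were higher, against 60.3% of all listed regions. After centring on the median listed change, 40.0% of them lay above zero, against 50% of all. Mapkapk2, the kinase that phosphorylates tristetraprolin, had 7 higher and 1 lower, and the lower had the largest change (-3.87, to a dKO level under the floor). Dusp1, a phosphatase of the p38 pathway, had 5 higher and 3 lower (largest -3.53). N4bp1, a nuclease with a domain like that of the Regnases, had 2 of each (largest 4.15, from a WT level under the floor). Arid5a, which protects Il6 mRNA, had 3 higher and 1 lower (largest -2.41), and Tnip1, an adaptor in inflammatory signalling, had 1 higher and 2 lower (largest 3.21).

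Of 29 genes whose mRNAs are classical targets of ZFP36, Regnase or roquin proteins, 22 (75.9%) had a listed region, against 63.0% of all protein-coding genes. Only higher regions were found at 19, only lower at 1 (Lcn2) and both at 2 (Tfrc and Socs3). In all, 60 of 65 regions (92.3%) were higher in dKO, against 60.3% of all listed regions. The cell type markers, a list of lineage genes, had a similar share, with 18 of 20 (90%). The median change of the higher target regions was 1.40, below the 1.58 of all higher listed regions. Nfkbid, an atypical inhibitor of NF-κB, had 8 higher regions with a median change of 0.79, and 1 covered its start (6.54 to 7.30). Tfrc, the transferrin receptor, had 5 higher and 2 lower. Il23a, a cytokine subunit, had 5 higher regions (largest 4.84), which are the same 5 as those of its neighbour Pan2. Ccl3, a chemokine, and Lif, a cytokine, had 5 higher regions each, with largest changes of 3.57 and 3.55 from WT levels of 0.85 and 0.77, which are under the floor. Ccl2, named because it was the only other target with a region over its start, rose there from 3.31 to 5.34. Leaving out regions shared with genes of the other lists, 52 of 57 were higher. These are accessibility values near genes, and no mRNA was measured in these libraries.

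**Figure D4:**
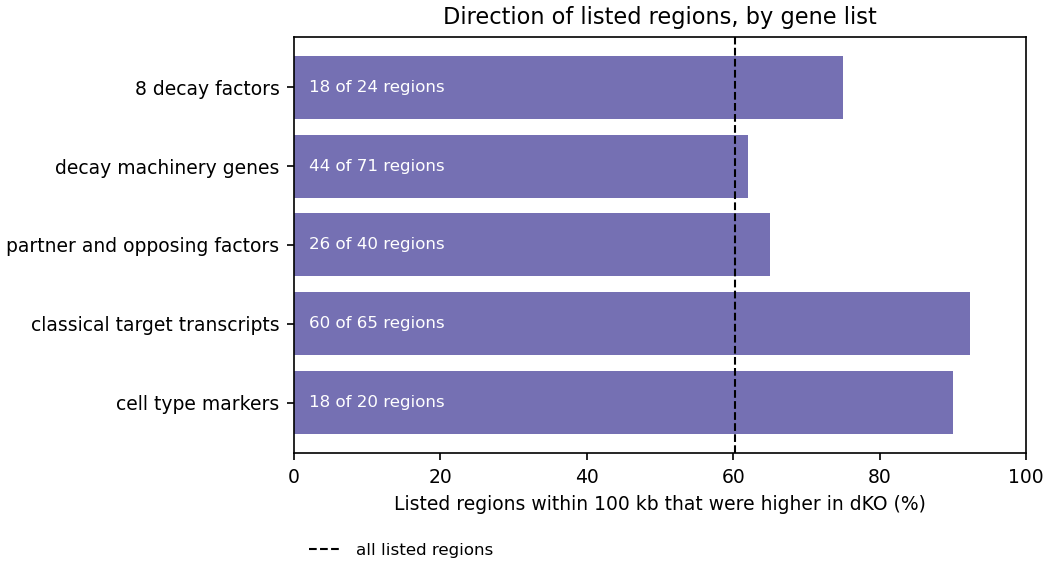
Share of listed regions within 100 kb that were higher in dKO (%), for the 8 decay factors and 4 gene lists, with counts in the bars and the share over all listed regions as a dashed line at 60.3%. The target list (60 of 65 regions) and the cell type markers (18 of 20) stand highest, while the machinery (44 of 71) and partner (26 of 40) lists lie near the line.

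As a check of the labels, the region over Cebpa, chr7:35118826-35119650, went from a log2 level of 9.99 in WT to -0.15 in dKO, the lowest level in the table. At Cebpb, chr2:167688638-167689380 went from 8.60 to 3.37 and chr2:167689715-167690187 from 7.38 to -0.15. Cell identity could not be checked by level, since the table lists changed regions only. Of 10 marker genes, 9 (90%) had a listed region, against 63.0% of all protein-coding genes, and 18 of 20 regions were higher, against 60.3% of all listed regions. Itgam had 4 and Csf1r 3 regions, all higher, whereas Mpo had 1 higher and 1 lower (largest change -1.13) and Cd3e 1 lower (-1.77). These 4 markers were picked out after their values were seen. The part of such lineage differences in the results above was not tested.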

How the data were processed

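ATAC-seq libraries of 6 samples (3 groups of 2) were described by 2 deposited files of identical content, which gave 1 table for WT and dKO. Per the study's methods and the submitters' processing notes, reads were aligned to mm10 with Bowtie2, peaks called with MACS2 and groups compared with DiffBind 2.14.0 at a corrected P-value of 0.05. How duplicates and the Tn5 offset were handled, and how peaks were merged, was not given in the sources used here; kept duplicates would raise strongly amplified regions. The authors deposited log2 mean normalised reads per group, which were used, and their own fold changes, p-values and false discovery rates, which were not. No value per library was listed, so that no replicate SD or test was computed, and nothing says whether the libraries came from separate cultures. A 95% Wilson interval on the share of higher member regions, 55.1% to 88.0%, served only to judge the alternatives. It treats regions as independent, which regions of 1 locus are not, so it does not measure the error of that share.

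Regions were assigned by overlap with GENCODE M21 gene bodies extended by 100 kb. The window covers 217 kb for the median protein-coding gene. Sequences and the promoters of 7 of 8 members (Zfp36l2 was not matched) came from RefSeq GRCm38.p6, whose chromosomes are those of mm10. The overlap rule and motif search were tested on simulated data. Some annotations and marker values are not reported here. Members, lists and motifs were chosen with earlier results of these data known. All member regions were given for members with up to 6; for Zfp36l2 the region nearest its start and the 5 largest changes were given, and for each of the 3 lists of decay machinery, partners and targets up to 5 genes with most regions (at least 3). Sequences were set to the largest and nearest region of each member and shown for those the text turns on. The alternatives were narrower windows, the nearest start, a change of at least 2-fold, levels at or above 3 reads per library, and centring on the median listed change. Python 3.11.15, pandas 2.3.3 and matplotlib 3.10.9 were used.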

Additional observations from a re-analysis of the deposited data

How the results depend on the processing

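The number of member regions depended on the window, with 24 regions at 100 kb, 14 at 50 kb, 5 at 10 kb and 3 in gene bodies only. At Zfp36l2 the count of higher minus lower regions fell from 9 to 3 at 50 kb, with no region left at 10 kb. Members with a region numbered 7 at 100 kb, 3 at 10 kb (Zfp36, Zfp36l1 and Zc3h12c) and 2 in gene bodies (Zfp36l1 and Zc3h12c). The share of higher member regions ranged from 66.7% to 84.2% over the alternatives run, against 75%. Centring on the median listed change (0.98), which puts 50% of all listed regions above zero, left 70.8% of member regions above it. It turned the single Rc3h1 region from higher to lower, so that its count of higher minus lower regions went from 1 to -1. The same centring, added after the data were seen for the gene lists, left 76.9% of target regions and 40.0% of partner regions above zero, against 92.3% and 65.0% without it. No paired analysis was possible because group means without library values were deposited, and for the same reason no replicate could be left out. Depth limits the low levels most, since the Zfp36l1 start region rests on 8.63 and the far Zfp36l2 region on 5.31 normalised reads in WT.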
